A study of Mus musculus with 4 samples.

Results

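The genes described here are Hcfc1, its paralog Hcfc2, and the 8 genes that encode the subunits of the mouse SET1 (COMPASS) histone methyltransferase complexes, which are Setd1a, Setd1b, Cxxc1, Wdr82, Wdr5, Ash2l, Rbbp5 and Dpy30. They were chosen by gene name for their function, and all 10 were found among the 20723 gene symbols of the array table. They were covered by 11 probe sets, since Setd1a had 2, and each gene was represented by its probe set with the highest mean. The cells were E14, an embryonic stem cell line from Ola129 mice, grown on gelatin with 15% serum and LIF, the cytokine that maintains self-renewal. Both groups were transiently transfected with esiRNA, a mixed pool of short interfering RNAs cut enzymatically from a long double strand. The control group (2 arrays) received esiRNA against GFP, and the silenced group (2 arrays) received esiRNA against Ogt. RNA was collected at 48 h in both. A single cell line was used, so the comparison is between pools of transfected cells of that line. In such bulk RNA, fewer cells carrying a transcript and less transcript per cell cannot be told apart.

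HCF-1, the product of Hcfc1, is a chromatin adaptor that carries no DNA-binding domain and is brought to promoters by transcription factors. OGT both adds O-GlcNAc to HCF-1 and cuts the HCF-1 precursor within its repeated HCF motifs, and HCF-1 in turn ties OGT to the SET1 complexes. In these complexes SETD1A or SETD1B methylates histone H3 at lysine 4 near active promoters. WDR5, ASH2L, RBBP5 and DPY30 form the core shared with the MLL methyltransferases, whereas CXXC1, which binds unmethylated CpG, and WDR82, which binds the phosphorylated tail of RNA polymerase II, belong to the SET1 type. Only transcripts were measured here, so neither the cleavage of HCF-1 nor lysine 4 methylation can be read from these arrays.

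The promoter windows of Hcfc1, the OGT substrate, and of Wdr5, the gene with the largest change among the 10, are shown with every CpG in capitals, because CpG is the dinucleotide that CXXC1 recognises. Both windows are RefSeq sequences of GRCm38.p6 from 250 bases before to 50 bases after an annotated start, written 5′ to 3′ on the gene's strand. The Hcfc1 window is chrX:73966308-73966607 on the minus strand and the Wdr5 window is chr2:27514897-27515196 on the plus strand.
Hcfc1: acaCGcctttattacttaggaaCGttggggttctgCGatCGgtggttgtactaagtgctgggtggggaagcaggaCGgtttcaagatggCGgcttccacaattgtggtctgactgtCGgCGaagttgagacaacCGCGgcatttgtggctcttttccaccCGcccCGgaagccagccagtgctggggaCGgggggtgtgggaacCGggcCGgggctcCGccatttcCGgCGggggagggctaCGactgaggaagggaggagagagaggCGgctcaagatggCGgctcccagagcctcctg
Wdr5: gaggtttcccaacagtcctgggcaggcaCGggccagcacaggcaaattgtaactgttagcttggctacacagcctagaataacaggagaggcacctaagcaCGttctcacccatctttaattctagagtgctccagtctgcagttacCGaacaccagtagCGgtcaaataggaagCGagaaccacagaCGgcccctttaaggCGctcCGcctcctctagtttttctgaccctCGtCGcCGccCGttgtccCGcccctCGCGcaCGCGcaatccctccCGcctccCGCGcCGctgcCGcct
The Hcfc1 window holds 21 CpG and the Wdr5 window 22, against a median of 7 (quartiles 3 and 20) over all 32851 windows of the same length. RefSeq windows were counted for 7 of the 10 genes, 11 windows in all, with a median of 26 CpG and a range of 1 to 39. No window of Setd1b, Cxxc1 or Ash2l was included, so the window counts do not describe these genes. The lowest count, 1, belonged to the Dpy30 window at chr17:74323895-74324194, and the other 3 Dpy30 windows held 30, 34 and 39. Setd1a held 35 CpG, Wdr82 28, Rbbp5 16, and the 2 Hcfc2 windows 18 and 26. The 2 Hcfc2 windows overlap each other, as do those other 3 Dpy30 windows. Bases that they share are counted more than once.

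3 short motifs were looked for on both strands. CCGGAA, the core of sites for ETS factors such as the HCF-1 partner GABPA, occurred 2 times in the Hcfc1 window and in none of the others, so in 1 of the 11 windows, against 14.9% of all windows. GGGCGG, the box of Sp1, was present in 6 of the 11 windows, from 5 of the 7 genes, against 35.7% of all windows. These were the windows of Hcfc1, Wdr5 and Wdr82, both windows of Hcfc2 and 1 of the 4 of Dpy30. AGATGGC, part of the site of YY1, was added after the Hcfc1 window had been read. It occurred 2 times there, and once in a window each of Hcfc2, Dpy30 and Wdr82, so in 4 of the 11 windows, against 6.40% of all windows. CCGGAA and GGGCGG each contain a CpG, so their matches are not independent of the CpG count. These are matches of letters, and no binding was measured.

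Ogt itself was checked first. Its values were 11.51 and 11.38 on the control arrays and 9.73 and 10.09 on the silenced arrays, on the log2 scale used throughout. The 2 silenced arrays were the lowest of the 4, with a difference of -1.54 (SE 0.17) between the group means, a 2.91-fold lower level. Over all probe sets this difference did not pass the threshold of 0.05 (adjusted p = 0.674 in limma). All 8 stem cell markers examined, Pou5f1, Nanog and Sox2 among them, stood above each array's median value (6.40 to 6.46) on all 4 arrays. Of 8 fibroblast markers 4 stood above it on all arrays and 3 below it on all arrays, and of 8 primitive endoderm markers 3 and 2 did so. Their part in the values given here was not tested.

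The comparison between the groups asks whether transcripts of HCF-1 and of the methyltransferase it binds differ when the enzyme that modifies HCF-1 is silenced. None of the 10 genes passed an adjusted p of 0.05 in limma, fitted and adjusted over all 34760 probe sets, as against 0% of all gene symbols. At an unadjusted p under 0.05 there were also 0 of the 10, where 6.06% of gene symbols stood at that level. The lowest adjusted p among the 10 was 0.683, for Wdr5, and over the whole table the lowest was 0.674. Of the 10 genes, 5 had a positive and 5 a negative difference, and the median difference was 0.01, beside 0.00 over all gene symbols. Regardless of sign, the median size was 0.14 for the 10 genes and 0.13 for all gene symbols. The groups did not overlap for 2 of the 10, Wdr5 and Ash2l, against 39.5% of all gene symbols. Since 2 arrays against 2 cannot give an exact permutation p under 0.333, no single gene could pass that test. In simulated data 0 of 50 probe sets with a change of 1 log2 unit passed the adjusted threshold. Of the same probe sets 96% had an unadjusted p under 0.05 in limma. The simulated arrays varied independently, whereas the real arrays of the same number deviated together (r = 0.676). A count of 0 at the adjusted threshold therefore does not show that these genes were unchanged. Changes smaller than 1 log2 unit were not simulated.

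**Figure D1:**
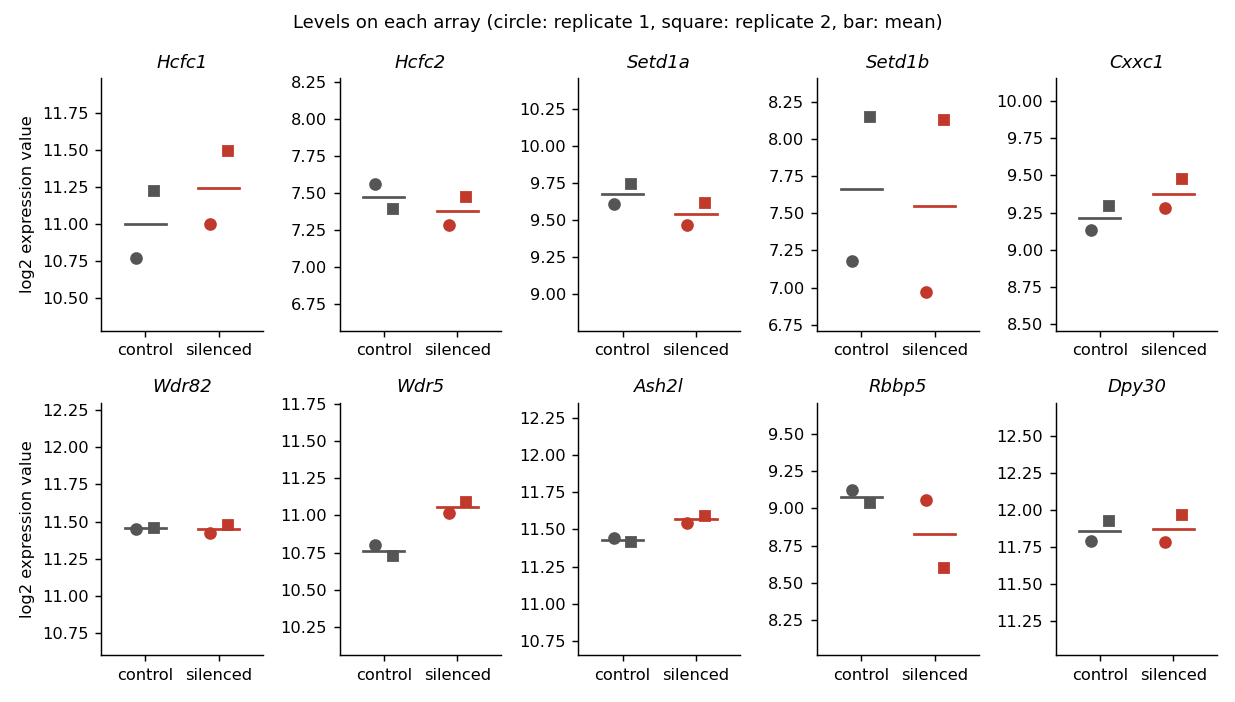
Log2 expression value of each of the 10 genes on each array (circles replicate 1, squares replicate 2, grey control, red Ogt-silenced, bars group means), each panel spanning the same number of log2 units. The silenced arrays of Wdr5 and Ash2l lie above both control arrays, and the points of the other 8 genes overlap between groups.

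Hcfc1 read 10.77 and 11.23 on the control arrays and 11.00 and 11.49 on the silenced arrays. The groups overlapped, because silenced array 1 lay below control array 2. The means were 11.00 ± 0.32 (SD, n = 2) in the control group and 11.25 ± 0.35 (SD, n = 2) in the silenced group. The difference was 0.25 (SE 0.25), or 1.19-fold, with a 95% confidence interval of 0.742- to 1.89-fold and an adjusted p of 0.837 in limma. In both groups the 2 arrays stood further apart than the group means did, by 0.45 among controls and 0.49 among silenced samples. Those gaps were wider than for 90.1% and 89.0% of gene symbols, respectively. The estimate therefore moved with single arrays. It was 0.02 without control 1 and 0.00 without silenced 2, but 0.47 without control 2 and 0.49 without silenced 1. Between arrays of the same number, silenced minus control, the difference was 0.23 and 0.26, although no label pairs them.

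Hcfc2 encodes HCF-2, a smaller relative of HCF-1. Its values were 7.56 and 7.39 in the control group and 7.29 and 7.47 in the silenced group. The silenced arrays lay on either side of control array 2, and the difference was -0.10 (SE 0.14, adjusted p = 0.895 in limma). The changes of the 2 paralogs differed by 0.34, Hcfc1 minus Hcfc2, with an exact two-sided permutation p of 0.667. The per-array contrast of their log2 values was 3.22 and 3.84 in the controls and 3.72 and 4.02 in the silenced samples, so the groups overlapped here as well.

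By a likeness rule based on the distance between mean-centred values over the 4 arrays, the gene symbols near to Hcfc1 included Fam40b and Pkd2l2, at distances of 0.02 and 0.04 log2 units. They were taken from 2666 gene symbols that varied at least as much as Hcfc1. Fam40b read 5.67 and 6.11 in the controls and 5.91 and 6.40 in the silenced samples. With 4 arrays such a match is a description of the array pattern.

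Neither of the catalytic subunit genes passed the test. Setd1a read 9.61 and 9.74 in the control group and 9.47 and 9.61 in the silenced group, and the groups overlapped by less than 0.01. Its difference was -0.13 (SE 0.13, 95% confidence interval -0.49 to 0.22, adjusted p = 0.829 in limma). The second Setd1a probe set, which lay below the array medians, pointed the other way. It read 4.83 and 5.20 in the controls and 5.11 and 5.44 in the silenced samples, a difference of 0.26 (SE 0.20), so that the direction for Setd1a depends on the probe set, and the mean of both gave 0.06.

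Setd1b had by far the widest spread of the 10 genes. It read 7.18 and 8.15 on the control arrays and 6.97 and 8.13 on the silenced arrays. In each group the array numbered 2 was the high one. The gap between the arrays of a group was 0.97 in the controls and 1.16 in the silenced samples, wider than for 99.1% and 99.2% of gene symbols. The difference between the groups was -0.11 (SE 0.52), with an interval of 0.350- to 2.44-fold. In this fit, which does not pair the arrays, a change of 2-fold in either direction lay within the error for this gene. For the other 9 genes the 95% interval lay inside a 2-fold change. Leaving out control 2 or silenced 1 turned the sign of Setd1b, to 0.37 and 0.47. Between arrays of the same number, silenced minus control, its difference was -0.21 and -0.02, although no label pairs them. The changes of Setd1a and Setd1b differed by -0.02 (exact two-sided permutation p = 1).

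**Figure D2:**
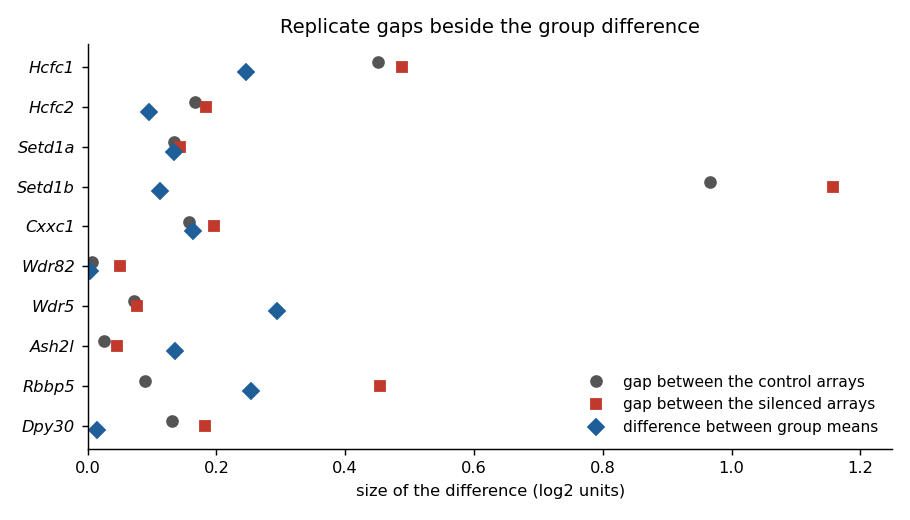
Gap between the 2 control arrays (grey circles), gap between the 2 silenced arrays (red squares) and size of the difference between group means (blue diamonds) for each gene, in log2 units. The group difference exceeds both gaps for Wdr5 and Ash2l, and Setd1b has the widest gaps, 0.97 and 1.16.

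Of the SET1-type subunits, Cxxc1 had values of 9.13 and 9.29 in the controls and 9.28 and 9.47 in the silenced samples. The lower silenced array fell just under the higher control array. The difference was 0.16 (SE 0.14, adjusted p = 0.805 in limma). Wdr82 had the narrowest range of the 10 over the 4 arrays, at 11.45 and 11.46 in the controls and 11.43 and 11.48 in the silenced samples. Its difference was -0.00 (SE 0.11), with a 95% confidence interval of 0.806- to 1.23-fold.

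Among the core subunits, Wdr5, the WD40-repeat scaffold that holds the methyltransferase and its partners together, had the largest difference of the 10 genes. It read 10.80 and 10.73 in the controls and 11.02 and 11.09 in the silenced samples. Both silenced arrays lay above both controls, and the difference exceeded the gaps within the groups, which were 0.07 and 0.08. The means were 10.76 ± 0.05 and 11.06 ± 0.05 (SD, n = 2 each), a difference of 0.29 (SE 0.12), or 1.23-fold with an interval of 0.983- to 1.53-fold. Wdr5 did not pass (unadjusted p = 0.063, adjusted p = 0.683 in limma). It lay between 0.26 and 0.33 whichever array was left out. In size the difference was larger than that of 83.0% of gene symbols.

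Ash2l, whose product binds DPY30 and stimulates the catalytic subunit together with RBBP5, read 11.44 and 11.42 in the controls and 11.54 and 11.59 in the silenced samples. The groups did not overlap, and the difference of 0.14 (SE 0.11) was 1.10-fold. It did not pass (adjusted p = 0.797 in limma), and about as many gene symbols had a smaller difference (51.5%) as a larger one.

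Rbbp5 had the largest negative difference. Its values were 9.12 and 9.04 in the controls and 9.05 and 8.60 in the silenced samples. Silenced array 2 alone was low, and silenced array 1 lay between the controls. The difference was -0.25 (SE 0.19, adjusted p = 0.778 in limma), and it was -0.03 without silenced 2 and -0.48 without silenced 1. Dpy30 read 11.79 and 11.92 in the controls and 11.78 and 11.97 in the silenced samples, with a difference of 0.01 (SE 0.14). Within the core, Wdr5 and Rbbp5 thus stood at opposite ends of the 10 genes.

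**Figure D3:**
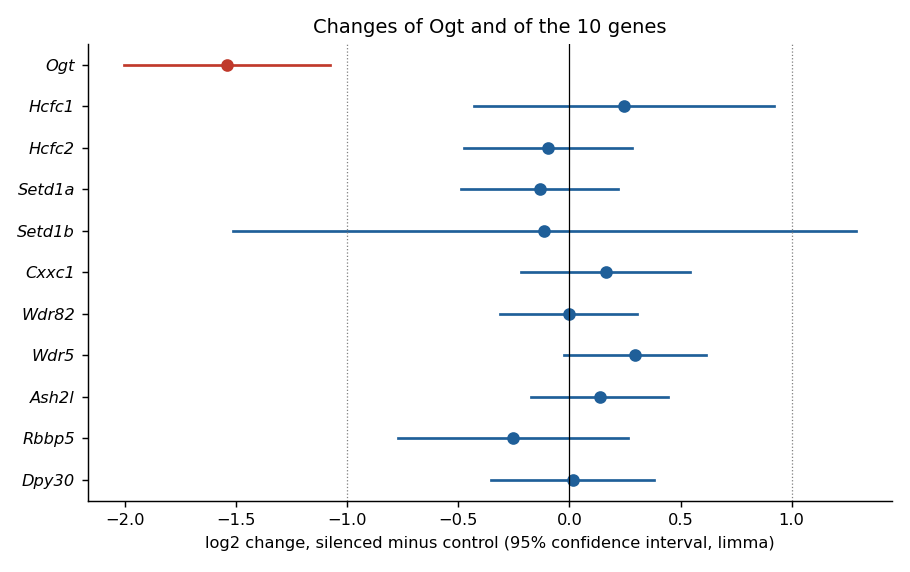
Log2 change, silenced minus control, of Ogt (red) and of the 10 genes (blue) with the 95% confidence interval from limma; dotted lines mark a 2-fold change. The interval of Ogt lies between -2.00 and -1.08, and all 10 intervals of the other genes include 0.

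For 6 of the 10 genes (Hcfc1, Setd1a, Setd1b, Cxxc1, Wdr82 and Dpy30) array 2 read higher than array 1 in both groups, which held for 32.6% of gene symbols. For 8 of the 10 genes a gap between arrays of one group was larger than the difference between the groups. The share over all gene symbols was not computed for this count. The groups of these 8 genes also overlapped, and groups did not overlap for 39.5% of all gene symbols.

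Genes that work with or against these complexes were examined in 6 lists of 70 genes, all of them measured. In limma 0 passed the adjusted threshold, and 2 stood at an unadjusted p under 0.05 (2.86%, against 6.06% of gene symbols). The first was Kdm1b, a lysine 4 demethylase gene, which read 7.69 and 7.67 in the controls and 8.06 and 8.27 in the silenced samples, a difference of 0.48 (SE 0.13, adjusted p = 0.674). The second was Bod1, whose relative Bod1l encodes a SET1 partner, at 8.00 and 7.94 in the controls and 7.68 and 7.62 in the silenced samples, a difference of -0.32 (SE 0.12, adjusted p = 0.674). A positive difference was found for 51.2% of all gene symbols.

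The MLL list covers the sister complexes that share the core, but not all of its 13 genes encode subunits of them, Bod1 and Bod1l among these. It had 9 genes with a positive and 4 with a negative difference, and a median of 0.14. Beside Bod1, the smallest p-values in it belonged to the methyltransferase genes Kmt2b (Wbp7 in the file) at 0.33 (SE 0.16) and Kmt2c (Mll3) at 0.30 (SE 0.20). The H3K4 demethylase list of 8 genes also holds Rcor1, which encodes a partner and not a demethylase. Of the 8 genes, 7 had a positive difference, with a median of 0.18, and Rcor1 stood at -0.03 (SE 0.13). Kdm5a stood at 0.36 (SE 0.14) and Kdm5d, which lay below the array medians, at 0.20 (SE 0.12). The 11 genes of H2B ubiquitination and the PAF complex, which act ahead of SET1 on transcribed chromatin, had 6 positive and 5 negative differences and a median of 0.02. Wdr61 stood at -0.21 (SE 0.12), Ctr9 at -0.19 (SE 0.13) and the ubiquitin-conjugating enzyme gene Ube2a at 0.15 (SE 0.12).

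Transcription factors that bind HCF-1 had 12 positive and 6 negative differences of 18, with a median of 0.08. Sp1 stood at -0.18 (SE 0.11), Gabpb1, the partner of GABPA, at 0.17 (SE 0.13) and Zbtb17 at 0.21 (SE 0.18). Among 14 readers of methylated lysine 4, 8 differences were positive and 6 negative (median 0.03), with Phf8 at 0.34 (SE 0.15), Ing2 at -0.26 (SE 0.12) and the remodeller gene Chd1 at 0.23 (SE 0.15). The 6 partners of WDR82 outside SET1 were split 3 and 3 (median 0.02). Of these, the phosphatase genes Ppp1ca and Ppp1cc stood at 0.15 (SE 0.11) and -0.12 (SE 0.12), and Tox4 at 0.09 (SE 0.17).

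**Figure D4:**
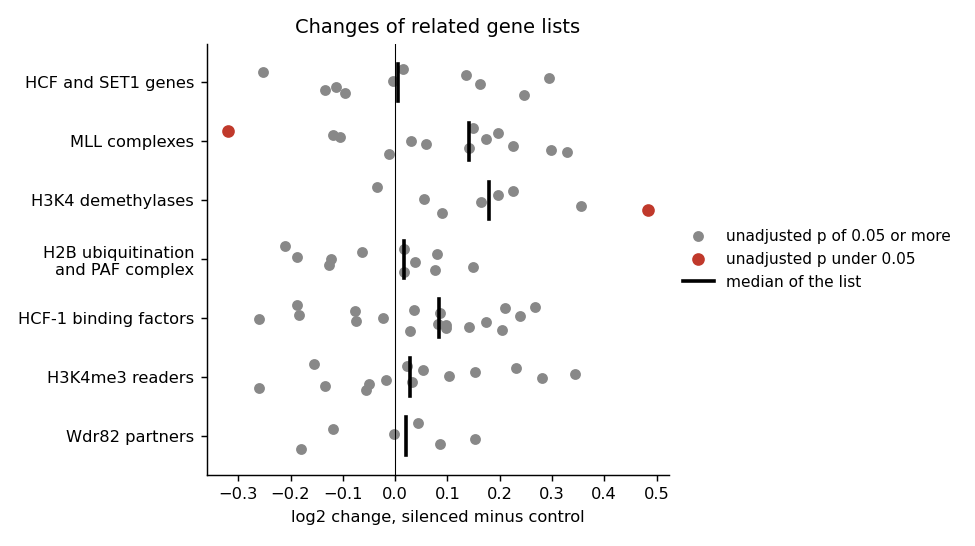
Log2 change, silenced minus control, of each gene in the 10-gene set and in 6 lists of related genes (points), with the list median (black bar). The 2 red points, Bod1 at -0.32 and Kdm1b at 0.48, have an unadjusted p under 0.05, and no gene shown passed the adjusted threshold.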

How the data were processed

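Total RNA (150 ng per sample) was labelled as biotinylated cDNA and measured on 4 one-colour arrays. The deposited log2 values were made with RMA, and the authors' deposited log2 fold changes and p-values with limma, per the submitters' processing notes, which give no versions. The array annotation and genome build were not stated (not given in the sources used here). The value table and the authors' comparison table hold identical expression values.

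A linear model with a group term alone was fitted to all 34760 probe sets in limma 3.58.1 under R 4.3.3 (lmFit, eBayes), with Benjamini-Hochberg adjustment at 0.05, and 2 residual degrees of freedom (4.38 after moderation). The fit matched the p-values in the authors' deposited table to within 4.84e-08. The fit was also tested on simulated data, with 50 probe sets each at changes of 1, 1.5, 2 and 3 log2 units. Of these, 0, 2, 20 and 36 passed the adjusted threshold, as did 4 of 34560 unchanged probe sets. RefSeq carried the file's symbol for 9 of the 10 genes by accession, and Setd1b is named as in the file. Promoter windows are RefSeq's, of GRCm38.p6.

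The 10 genes and the lists were chosen with earlier results of these data known. The text names all 10 genes, Ogt, the 3 list members with the smallest p, and the 3 genes most like Hcfc1, of which 1 is not reported here. Alternatives covered scaling, filters, variance models, the replicate block, the mean of probe sets, and leaving out each array. The labels do not say that replicates were separate cultures, and the p-values therefore reflect only how far these arrays spread, which may be technical. Their number limits the precision, and batches were not labelled.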

Additional observations from a re-analysis of the deposited data

How the results depend on the processing

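The counts of 0 probe sets over the table and 0 of the 10 genes past an adjusted p of 0.05 were the same under all alternatives run for them. At an unadjusted p under 0.05 the count among the 10 genes became 1, Wdr5, under some alternatives. These kept only probe sets with a gene symbol, used a variance trend, or averaged probe sets per gene. Hcfc1 stayed positive, at 0.00 to 0.49 with 1 array left out, and its lowest adjusted p under any alternative was 0.349. The median of the 10 genes ran from -0.027 to 0.13 with 1 array left out. Directions turned for genes near 0 or with discordant arrays. Wdr82 became 0.0028 with arrays centred on their medians and 0.0057 after quantile normalization. With 1 array left out, Wdr82 ran from -0.029 (without silenced 2) to 0.021 (without silenced 1), Dpy30 from -0.076 (without silenced 2) to 0.106 (without silenced 1) and Setd1b from -0.69 (without silenced 2) to 0.47 (without silenced 1). Setd1a became 0.063 with its probe sets averaged. The difference between the changes of Setd1a and Setd1b became 0.18 with probe sets averaged and ran from -0.53 to 0.49 with 1 array left out. For the difference between Hcfc1 and Hcfc2 that range was 0.03 to 0.65. The recomputed values numbered 178, part of them counts of probe sets or genes, which cannot change sign. Of the others 13 changed sign, the median of the 10 genes among them (without control 1 and without silenced 2). Fits with 1 array in a group assume that it varies like the others. The fit with a replicate block treats equal numbers as pairs, although no label says so. In that fit 0 of the 10 genes passed. Hcfc1 stayed at 0.25 (unadjusted p = 0.069, adjusted p = 0.349 in limma), where its unadjusted p without the block was 0.380. Arrays of the same number deviated together over gene symbols (r = 0.676), but 2 pairs do not settle a pairing.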

Other observations

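For 49 of the 70 genes of the related lists, a gap between arrays of one group was larger than the difference between the groups. That share was not computed over all gene symbols. The groups did not overlap for 26 of the 70, against 39.5% of all gene symbols. The 3 of the 70 with the widest gap between the silenced arrays are given here, chosen after their values were seen. The proto-oncogene Myc, in the list of HCF-1 binding factors, read 7.54 and 9.78 on the control arrays and 7.82 and 10.04 on the silenced arrays. Its gaps within the groups were 2.24 and 2.22, while the difference between the groups was 0.27 (SE 1.07). Ppp1r10, which encodes a phosphatase subunit that binds WDR82, read 8.97 and 10.06 in the controls and 8.70 and 9.97 in the silenced samples. For both genes, as for Setd1b, array 2 was the higher one in each group. Thap3 went the other way, at 7.41 and 6.82 in the controls and 7.78 and 6.86 in the silenced samples.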
